A study of Mus musculus with 8 samples.

Results

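Cholesterol synthesis and sterol transport were followed through 30 genes: the enzymes that build cholesterol, the proteins that sense sterols and set the enzymes' transcription, and the proteins that carry or esterify sterols. Members were all probe sets whose single gene symbol in the platform annotation was 1 of these 30. They numbered 57 probe sets for 28 genes, of 18193 genes in the table. Acat2 and Soat2 had no such probe set and were not analysed here. Where a gene had several probe sets, the brightest on average across the 8 arrays stands for it.

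Values came from the proximal small intestine, the 5 cm next to the pylorus, of 4 knockout and 4 control mice, with 1 array a mouse. Knockout (KO) mice had the genotype Pdx1flox/flox;VilCre, in which Cre under a 12.4 kb villin 1 promoter fragment removes the exon for the DNA-binding homeodomain of Pdx1 in the gut epithelium. Control (Ctrl) mice had the genotype Pdx1flox/flox, so both groups carried the floxed alleles and only the knockout carried Cre. All 8 were males aged 6 months on a standard diet with 4.5% fat, and the labels describe them as brothers from a litter. Cre acts in the epithelium alone, while the RNA was that of the whole intestinal wall. In such tissue fewer cells of a type and less RNA per cell cannot be told apart.

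Cells make cholesterol from acetyl-CoA through mevalonate, farnesyl diphosphate, squalene and lanosterol. When sterols in the endoplasmic reticulum are low, SCAP escorts the transcription factor SREBP2 (gene Srebf2) to the Golgi, where proteases release its active part, and INSIG proteins hold the complex back when sterols are high. In enterocytes NPC1L1 takes up sterols from the lumen, the paired ABCG5 and ABCG8 proteins return them, and ABCA1 hands cholesterol to lipid-poor apolipoprotein A-I. Oxysterol-activated LXR (LXR alpha is the product of Nr1h3) is the known inducer of the ABC transporter genes.

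The array medians lay between 5.23 and 5.27 on the log2 scale. Pdx1, the deleted gene, averaged 5.93 ± 0.25 in KO and 8.52 ± 0.36 in Ctrl (SD, n = 4 each; limma, adjusted p = 4.16e-04). The 9 enterocyte markers measured, of 10 listed, had means between 9.67 and 14.48, above the array medians. Exocrine pancreas markers were also bright, with 9 of 11 measured and means between 12.79 and 14.02. Their summed linear level ran between 83950 and 154100 in KO and between 45800 and 203500 in Ctrl, highest in KO 3 and in Ctrl 4.

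None of the 28 genes passed the test between knockout and control. In limma's test, with Benjamini-Hochberg adjustment over all 45037 probe sets, 0 of the 57 member probe sets had an adjusted p under 0.05, where 0.0422% of all probe sets did. The smallest adjusted p was 0.520 among the probe sets that stand for the 28 genes and 0.452 among all 57. At an unadjusted p under 0.05, 3 of the 28 genes were higher in KO (10.7%, against 3.63% of all genes) and 0 were lower (against 3.20%). An ordinary linear model also called 0 members. These 3 were Abcg5, Abcg8 and Stard4, all of the transport group. Over all 57 member probe sets, 5 were higher (8.77%, against 3.50% of all probe sets) and 1 was lower (1.75%, against 3.62%). By the probe set that stands for each gene, Abcg5 alone, 3.57% of the members, had every KO value above every Ctrl value, as had 2.28% of all genes. Over all 57 member probe sets this held for 2 (3.51%, against 2.1% of all probe sets). In 1 of the 57 every KO value was below every Ctrl value, as in 1050 of all 45037 probe sets. The median log2 difference, KO minus Ctrl, was 0.059 over the members and 0.0046 over all genes. The KO mean was the higher in 19 of 28 members, but in 10 without KO 3 and in 11 without Ctrl 4.

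**Figure D1:**
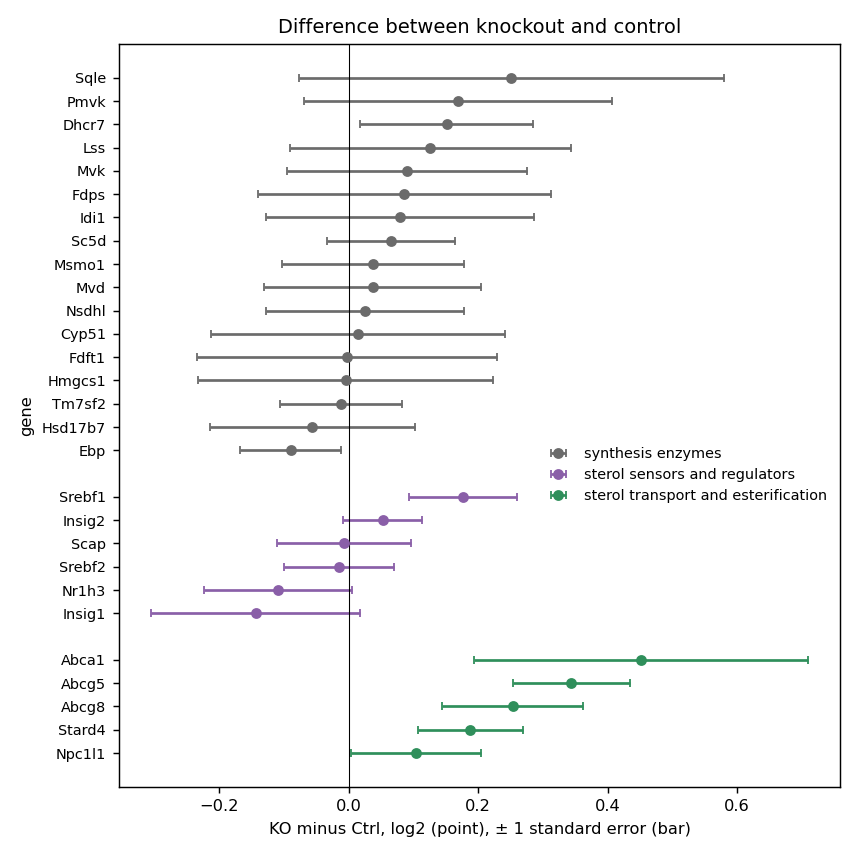
Log2 difference of each of the 28 measured genes, KO minus Ctrl (x axis; point), with 1 standard error of the limma fit (bar), grouped by role down the page. The synthesis enzymes lie on both sides of 0 between -0.090 and 0.25, and all 5 transport genes lie above 0, between 0.10 and 0.45.

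The synthesis enzymes had nearly the same mean in both genotypes and differed widely between mice of a genotype. Of the 17 enzymes measured, 12 had the higher mean in KO and 5 in Ctrl, and their median log2 difference was 0.038. Their median SD between mice within groups was 0.33 on the log2 scale, against 0.13 over all genes, and 10 of the 17 were above the 95th percentile of all probe sets for this SD.

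Hmgcs1, the cytosolic synthase that makes HMG-CoA, read 11.68, 11.58, 12.16 and 11.14 in KO 1 to 4, against 11.52, 11.79, 12.10 and 11.16 in Ctrl 1 to 4. The highest value in each genotype was that of the mouse numbered 3 and the lowest that of the mouse numbered 4, so the ranges of the genotypes overlapped almost fully. Its mean was 11.64 ± 0.42 in KO and 11.64 ± 0.40 in Ctrl (SD, n = 4 each), a log2 difference of -0.0049 with a standard error of 0.23. Sqle, the squalene epoxidase, had the largest spread of the members. It read 9.76, 9.59, 10.67 and 9.13 in KO 1 to 4, against 9.33, 9.97, 10 and 8.85 in Ctrl 1 to 4. The highest and lowest KO mice differed 2.90-fold and the highest and lowest Ctrl mice 2.21-fold, while the log2 difference between genotypes was 0.25 with a standard error of 0.33 (limma, adjusted p = 0.905). Without KO 3 that difference was -0.043.

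Cyp51, which removes the 14-alpha methyl group of lanosterol, read 9.29, 9.25, 9.85 and 8.86 in KO 1 to 4, against 9.13, 9.54, 9.71 and 8.80 in Ctrl 1 to 4. Fdft1, squalene synthase, read 9.68, 9.55, 9.97 and 9.05 in KO 1 to 4, against 9.31, 9.72, 10.12 and 9.11 in Ctrl 1 to 4. Both repeated the order of Hmgcs1 at the ends, with KO 3 and Ctrl 3 high and KO 4 and Ctrl 4 low. Pmvk, phosphomevalonate kinase, read 8.09, 8.12, 8.93 and 7.72 in KO 1 to 4, against 8.0, 8.32, 8.26 and 7.61 in Ctrl 1 to 4. Here Ctrl 2 was slightly above Ctrl 3. None of the 3 separated the genotypes, and their log2 differences were 0.014 for Cyp51, -0.0029 for Fdft1 and 0.17 for Pmvk.

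The order recurred in most enzymes of the pathway. KO 3 was the highest KO mouse for 16 of the 17 enzymes, and KO 4 the lowest for 16. Among controls, Ctrl 3 was the highest for 12 and Ctrl 4 the lowest for 16. All 4 placings held together for 12 of the 17, or 70.6%, against 2.23% of all genes. Averaged over the 17 enzymes, the deviation from each gene's mean was 0.01, -0.04, 0.42 and -0.28 in KO 1 to 4, against -0.09, 0.11, 0.27 and -0.41 in Ctrl 1 to 4. The enzymes thus varied together between mice, over a wider range than separated the genotype means.

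**Figure D2:**
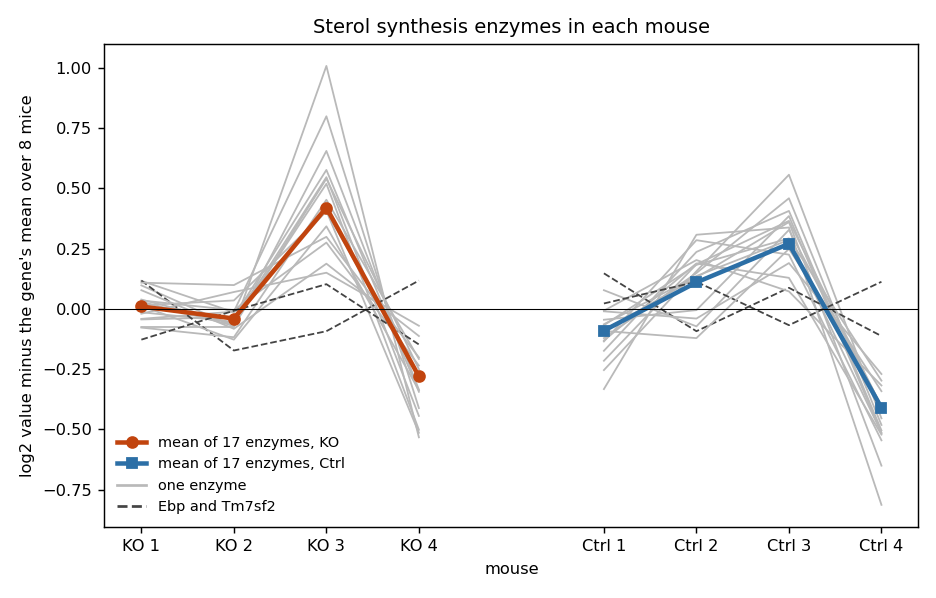
Deviation of each of the 17 synthesis enzymes from its own mean over the 8 mice, in log2 units (y axis), in each KO and Ctrl mouse (x axis). Thin lines join the values of 1 enzyme and thick lines their mean, which is 0.42 in KO 3, 0.27 in Ctrl 3, -0.28 in KO 4 and -0.41 in Ctrl 4. Dashed lines are Ebp and Tm7sf2, which did not share the pattern over both genotypes. Ebp was highest in KO 3 and lowest in KO 4 among KO mice, but lowest in Ctrl 3 among controls.

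Pearson's r was taken between the deviations of each pair of enzymes from their group means, over the 8 arrays. The median r over the 136 pairs was 0.90, against 0.0033 over all pairs of genes, of which 1.10% reached the median of the enzymes. These are descriptions over 8 points that share their arrays. Each enzyme was also set against the mean of the other 16. Cyp51 and Hmgcs1 had r = 0.99, Idi1 (isopentenyl diphosphate isomerase) 0.99, Hsd17b7 (a sterol 3-keto reductase) 0.99 and Lss (lanosterol synthase) 0.99. In all, 13 of 17 had r of at least 0.9, which 1.16% of other genes had with the enzyme mean. The steps of the mevalonate stage were among them, with Mvk (mevalonate kinase) at 0.96 and Mvd (mevalonate diphosphate decarboxylase) at 0.94, as was Fdps (farnesyl diphosphate synthase) at 0.97.

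Among late steps, Dhcr7, the last reductase before cholesterol, had r = 0.91 and Nsdhl, which helps remove the methyl groups at carbon 4, had 0.91. Sc5d, the desaturase before Dhcr7, had r = 0.87 with a smaller SD of 0.15, and Msmo1, the methyl sterol oxidase, had 0.82. The 2 enzymes outside the pattern over both genotypes were Ebp, the sterol isomerase, with r = 0.20, and Tm7sf2, a sterol 14-reductase, with r = -0.087. Ebp had the KO 3 and KO 4 placings of the others, but Ctrl 3 was its lowest control. Ebp was also among the steadier members, with an SD of 0.10. Of the 21 further probe sets of these enzymes, 10 reached r of 0.9.

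Promoters are shown for 3 enzymes with r of 0.99 against the others, Hmgcs1, Idi1 and Cyp51, taken from successive stages of the pathway. The sequences are those of RefSeq on build GRCm38.p6, 250 bases before to 50 after the annotated start, 5′ to 3′ on the gene's strand. Of the 28 measured members 24 were in the promoter table, and Fdps, Fdft1, Sqle and Stard4 were not. Capitals mark matches, on either strand, to a core of the sterol regulatory element bound by SREBP (TCACNCCAC) or to the CCAAT box bound by NF-Y (CCAAT, or ATTGG on the other strand). The 2 motifs do not overlap in these windows.
Hmgcs1 (chr13:119690101-119690400, plus strand): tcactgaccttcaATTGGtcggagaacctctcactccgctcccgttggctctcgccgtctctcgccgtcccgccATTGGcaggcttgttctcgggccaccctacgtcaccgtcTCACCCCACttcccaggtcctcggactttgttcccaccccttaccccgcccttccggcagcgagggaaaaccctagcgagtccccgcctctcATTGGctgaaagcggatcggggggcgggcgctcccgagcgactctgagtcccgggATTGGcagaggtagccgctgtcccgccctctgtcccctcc
Idi1 (chr13:8885356-8885655, plus strand): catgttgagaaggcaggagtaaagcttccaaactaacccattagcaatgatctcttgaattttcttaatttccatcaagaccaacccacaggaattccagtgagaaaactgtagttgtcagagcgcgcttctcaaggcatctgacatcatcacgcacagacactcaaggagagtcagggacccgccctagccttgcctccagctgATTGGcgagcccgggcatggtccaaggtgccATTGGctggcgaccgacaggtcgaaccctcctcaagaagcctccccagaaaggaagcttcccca
Cyp51 (chr5:4104648-4104947, minus strand): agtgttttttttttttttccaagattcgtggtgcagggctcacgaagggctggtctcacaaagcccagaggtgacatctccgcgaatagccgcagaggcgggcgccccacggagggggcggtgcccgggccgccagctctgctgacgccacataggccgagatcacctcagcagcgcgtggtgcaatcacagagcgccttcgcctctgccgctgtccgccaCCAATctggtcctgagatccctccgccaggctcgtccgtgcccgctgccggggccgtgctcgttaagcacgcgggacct

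Among the 14 synthesis enzymes with a promoter window, 14 held a CCAAT box, against 41.1% of all 27025 genes in the table. Over all 24 members with a window 21 held it (87.5%), so the box was not particular to the enzymes. Insig2 and Abcg8, which did not follow the enzymes between mice, were among these 21. Ebp and Tm7sf2, whose values over both genotypes did not follow the others, held it too. The Hmgcs1 window held 4, the Idi1 window 2 and the Cyp51 window 1. The sterol regulatory element core was found in the Hmgcs1 window alone among the members, 137 bases before the start, and in 1.44% of all genes. A match is a description of letters in this window, and no match in the other windows says nothing of SREBP there.

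The spread of the enzymes between mice moved with control probe sets on the arrays. The 12 probe sets for Dap, Lys, Phe and Thr read Bacillus subtilis transcripts that the array maker supplies as polyadenylated spike-ins for the labelling reaction, and the sources used here do not say how they were added. Their mean was 9.30, 9.43, 8.56 and 9.85 in KO 1 to 4, against 9.42, 9.21, 8.91 and 10.02 in Ctrl 1 to 4. The spike-ins were thus lowest in KO 3 and Ctrl 3, where the enzymes were highest, and highest in KO 4 and Ctrl 4. Over the 8 arrays the deviations of the spike-ins and of the enzyme mean from their group means had r = -0.99, a description without a test.

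The 3 probe sets for 18S ribosomal RNA averaged 8.58, 8.30, 6.91 and 10.87 in KO 1 to 4, against 8.44, 8.46, 7.03 and 8.96 in Ctrl 1 to 4, again lowest in the mice numbered 3 and highest in those numbered 4. The 9 hybridisation controls did not follow, at 9.28, 9.41, 9.19 and 9.23 in KO 1 to 4, against 9.38, 8.97, 9.35 and 9.27 in Ctrl 1 to 4. With the spike-in mean as a covariate, a fit chosen after the data were seen, the median r between enzymes was 0.090 and their median SD 0.11, and 0 members passed. A covariate with r of -0.99 against the enzyme mean takes out the shared spread whatever its source. This fit therefore cannot tell the source. Of all genes, 1.20% had r of -0.9 or less with the spike-ins, against 13 of the 17 enzymes. With the mean of the exocrine pancreas markers as a covariate, also chosen afterwards, the median r between enzymes was 0.92. Deviations of the smooth muscle and immune marker means had r of 0.70 and 0.62 with the enzyme mean. Those of the enterocyte and exocrine pancreas marker means had r of -0.29 and -0.32. The part that RNA input or RNA composition had in the pattern was not tested further.

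**Figure D3:**
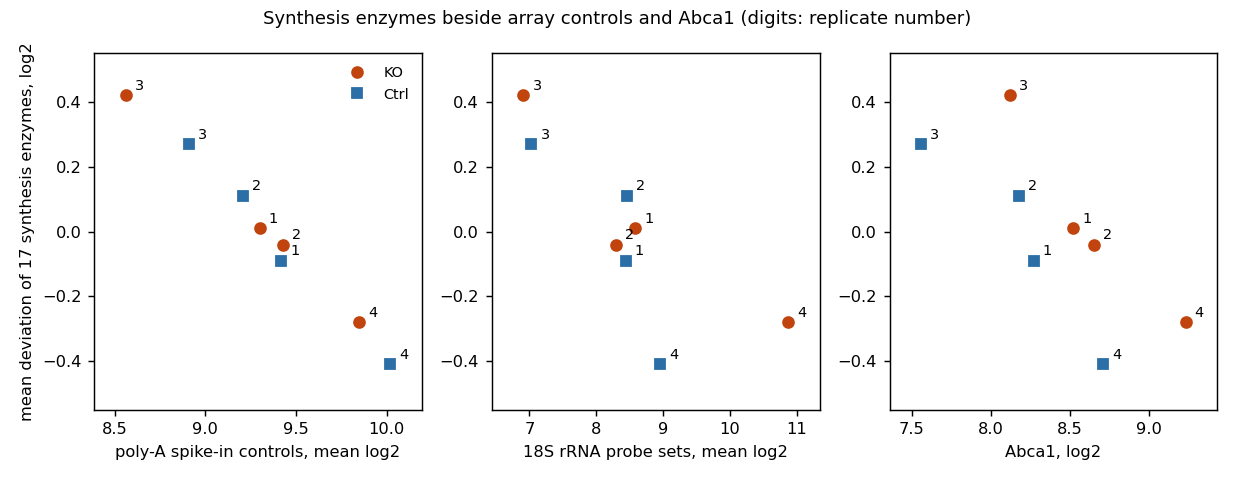
Mean deviation of the 17 synthesis enzymes (y axis, log2) in each mouse against the mean of the poly-A spike-in controls, the mean of the 18S rRNA probe sets and Abca1 (x axes, log2). Circles are KO and squares Ctrl, with replicate numbers beside them. In all 3 panels KO 3 and Ctrl 3 lie at the upper left of their group and KO 4 and Ctrl 4 at the lower right.

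Of the sterol sensors and regulators, Insig1 and 1 of the 2 probe sets of Srebf2 shared much of the enzymes' spread. INSIG1 retains the SCAP and SREBP complex in the endoplasmic reticulum, and Insig1 is itself a known SREBP target. It read 9.19, 8.87, 9.11 and 8.80 in KO 1 to 4, against 9.03, 9.16, 9.6 and 8.76 in Ctrl 1 to 4. Ctrl 3 was high and KO 4 and Ctrl 4 were low, but the highest KO mouse was KO 1. Its r with the enzymes was 0.82. The log2 difference between genotypes was -0.14 with a standard error of 0.16 (limma, adjusted p = 0.886), and without Ctrl 3 it was 0.0098. Its promoter window, shown as that of a regulator that varied with the enzymes, held 1 CCAAT box and no match to the sterol regulatory element core.
Insig1 (chr5:28071162-28071461, plus strand): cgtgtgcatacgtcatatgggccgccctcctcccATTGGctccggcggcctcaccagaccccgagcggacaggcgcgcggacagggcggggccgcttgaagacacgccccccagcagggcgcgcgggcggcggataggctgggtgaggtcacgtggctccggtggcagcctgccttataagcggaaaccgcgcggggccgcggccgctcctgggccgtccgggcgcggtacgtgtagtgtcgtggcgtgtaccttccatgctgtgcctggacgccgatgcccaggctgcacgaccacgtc

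Srebf2, which encodes SREBP2, read 8.79, 8.84, 8.93 and 8.62 in KO 1 to 4, against 8.67, 8.92, 8.83 and 8.83 in Ctrl 1 to 4. These values lay close together, with a mean of 8.80 ± 0.13 in KO and 8.81 ± 0.10 in Ctrl (SD, n = 4 each) and r = 0.61 with the enzymes. The second probe set of Srebf2 read 8.46, 8.55, 8.76 and 8.12 in KO 1 to 4, against 8.24, 8.63, 8.66 and 8.34 in Ctrl 1 to 4. It was highest in the mice numbered 3 and lowest in KO 4 and Ctrl 1, with a wider SD of 0.24 and r = 0.85 with the enzymes. Its log2 difference between genotypes was 0.0043 (limma, adjusted p = 0.996). SREBP2 is activated by cleavage, which a transcript level does not show. Srebf1, whose product SREBP1 acts mainly on fatty acid genes, averaged 9.44 ± 0.099 in KO and 9.27 ± 0.13 in Ctrl (SD, n = 4 each), with a log2 difference of 0.18 (limma, adjusted p = 0.714).

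By the probe set that stands for each gene, Scap, at -0.0071, Insig2, at 0.053, and Nr1h3, at -0.11, had small log2 differences. By these same probe sets, none of the 6 regulators reached an unadjusted p under 0.05 in limma. Insig2, the paralog of Insig1, was then the steadiest member, with an SD of 0.045, at percentile 1.95 of all probe sets. Its r with the enzymes was -0.48. The other 2 probe sets of Insig2 had SDs of 0.094 and 0.17, at percentiles 24.8 and 76.0. Their log2 differences were 0.034 and 0.21. The second, dim probe set of Scap had a log2 difference of -0.20, with all KO values below all Ctrl values and limma's adjusted p was 0.625. It read 3.94 in KO and 4.14 in Ctrl, below the array medians.

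The 3 largest log2 differences of the members were those of the transporter genes Abca1, Abcg5 and Abcg8, though none passed. Abcg8, at 0.253, was barely above the enzyme gene Sqle, at 0.251, and their order depended on single mice. Without KO 4 they had 0.22 and 0.47, and without KO 3 0.34 and -0.043. All 5 transport genes measured had the higher mean in KO, with a median log2 difference of 0.25. Abcg5 encodes 1 of the 2 chains of the transporter that returns sterols to the gut lumen. It read 10.90, 10.77, 10.77 and 10.80 in KO 1 to 4, against 10.45, 10.43, 10.28 and 10.70 in Ctrl 1 to 4. Every KO mouse was above every Ctrl mouse, the nearest pair being separated by less than the spread of the controls. Its mean was 10.81 ± 0.063 in KO and 10.47 ± 0.17 in Ctrl (SD, n = 4 each), a log2 difference of 0.34 or 1.27-fold with a standard error of 0.090 (limma, unadjusted p = 0.00330, adjusted p = 0.520).

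Abcg8, for the other chain, read 9.31, 9.17, 8.91 and 9.28 in KO 1 to 4, against 9.0, 8.68, 8.90 and 9.07 in Ctrl 1 to 4. KO 3 lay within the control range and the other KO mice above it. The log2 difference was 0.25, or 1.19-fold, with a standard error of 0.11 (limma, adjusted p = 0.692). Both genes lie head to head on chromosome 17, and their annotated starts are 110 bases apart. The Abcg5 window, shown because the pair shares it, overlaps that of Abcg8 by 209 bases and holds 1 CCAAT box, at the annotated start.
Abcg5 (chr17:84682962-84683261, minus strand): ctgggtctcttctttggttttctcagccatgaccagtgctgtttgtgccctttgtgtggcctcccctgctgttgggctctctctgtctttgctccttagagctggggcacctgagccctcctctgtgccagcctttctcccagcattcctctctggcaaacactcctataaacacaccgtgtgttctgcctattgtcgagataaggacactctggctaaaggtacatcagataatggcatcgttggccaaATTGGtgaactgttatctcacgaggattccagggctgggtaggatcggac

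Abca1 had the largest log2 difference of the members and, after Sqle, the largest spread. It read 8.52, 8.65, 8.12 and 9.23 in KO 1 to 4, against 8.27, 8.18, 7.56 and 8.71 in Ctrl 1 to 4. The order was the reverse of that of the synthesis enzymes, lowest in the mice numbered 3 and highest in those numbered 4, with r = -0.95 against the enzymes. The groups overlapped, and the log2 difference of 0.45, or 1.37-fold, had a standard error of 0.26 (limma, adjusted p = 0.756). The difference fell to 0.24 without Ctrl 3 and to 0.25 without KO 4, below that of Abcg5 in the same fits (0.28 and 0.35).

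With the spike-in covariate the difference of Abca1 was 0.54 (limma, adjusted p = 0.210, the lowest over its alternatives). The dimmest of its 3 probe sets read 4.80, 4.72, 4.82 and 5.18 in KO 1 to 4, against 4.64, 4.32, 4.25 and 4.23 in Ctrl 1 to 4. There the groups did not overlap and the log2 difference was 0.52 (limma, adjusted p = 0.452), though these values lie below the array medians. This probe set had r of only -0.32 with the enzymes, and its lowest Ctrl value was that of Ctrl 4. The remaining probe set, brighter than this one, averaged 5.92 in KO and 5.80 in Ctrl, with overlapping groups. Its log2 difference was 0.12 (limma, adjusted p = 0.872) and its r with the enzymes -0.83. Abcg5 and Abcg8 ran opposite to the enzymes too, with r of -0.71 and -0.77. The Abca1 window, shown as that of the member with the lowest r against the enzymes, held neither motif. The windows of Abcg5 and Abcg8, which also ran opposite, did hold the CCAAT box.
Abca1 (chr4:53159846-53160145, minus strand): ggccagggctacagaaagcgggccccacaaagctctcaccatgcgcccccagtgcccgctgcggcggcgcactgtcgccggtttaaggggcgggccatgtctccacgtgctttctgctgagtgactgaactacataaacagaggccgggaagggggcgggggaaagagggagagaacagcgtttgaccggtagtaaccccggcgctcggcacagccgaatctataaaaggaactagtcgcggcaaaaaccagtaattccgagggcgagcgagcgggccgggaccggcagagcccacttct

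**Figure D4:**
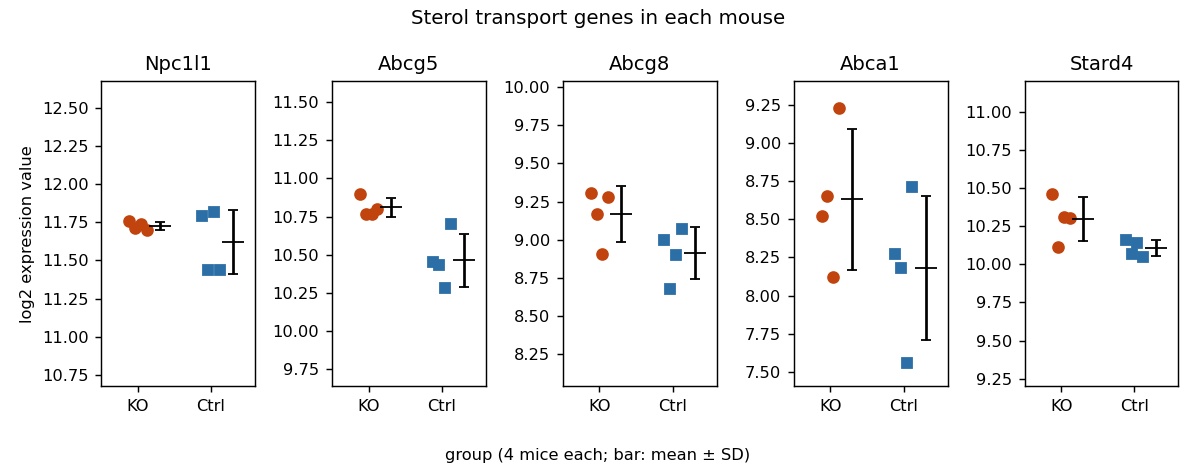
Log2 expression value (y axis, each panel spanning the same range) of the 5 measured transport genes in each KO mouse (circles) and each Ctrl mouse (squares), with the group mean ± SD. Only the Abcg5 groups do not overlap, with KO values from 10.77 to 10.90 and Ctrl values from 10.28 to 10.70.

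Stard4, a cytosolic carrier that moves cholesterol between membranes, read 10.46, 10.11, 10.31 and 10.30 in KO 1 to 4, against 10.16, 10.07, 10.14 and 10.05 in Ctrl 1 to 4. KO 2 lay within the control range and the other KO mice above it. The log2 difference was 0.19 with a standard error of 0.081 (limma, adjusted p = 0.693), and its other probe sets had 0.24 and 0.13. Stard4 is a known SREBP target. Its r with the synthesis enzymes was 0.18, while its other probe sets, in the same order, had r of 0.44 and 0.65. Npc1l1, the uptake transporter blocked by ezetimibe, read 11.76, 11.71, 11.74 and 11.70 in KO 1 to 4, against 11.79, 11.44, 11.82 and 11.44 in Ctrl 1 to 4. The KO values lay close together inside the range of the controls, and the log2 difference was 0.10 with a standard error of 0.10 (limma, adjusted p = 0.864).

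Cell type markers were read beside the transport genes. Of 9 markers of enterocytes, the cells that express the apical sterol transporters, 8 had the higher mean in KO, with a median log2 difference of 0.12, and 0 passed. The summed linear level of these markers ran between 116000 and 129500 in KO and between 105900 and 120500 in Ctrl. Smooth muscle markers had the higher mean in KO in 7 of 7, with a median of 0.21. Exocrine pancreas markers had the higher mean in KO in 0 of 9, with a median of -0.17. The other lists were mixed. Immune markers were higher in KO in 5 of 6 (median 0.091), hepatocyte markers in 3 of 5 (0.0091) and adipocyte markers in 3 of 3 (0.16). Crypt and proliferation markers were higher in 2 of 6 (-0.036), and goblet and Paneth markers in 2 of 5 (-0.027). Of all genes, 51.6% had the higher mean in KO. None of these lists held a marker that passed. The part of cell composition in the transport differences was not tested.

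Further genes of sterol and lipid handling gave no calls. In the list of sterol synthesis and SREBP2 targets outside the members, 8 of 13 were measured, 0 passed, and the median log2 difference was 0.090. In the list of LXR partners and cholesterol handling, 12 of 14 were measured and 0 passed in either direction, while at an unadjusted p under 0.05 in limma 3 were higher (25%, against 3.63% of all genes) and 1 was lower in KO (8.33%, against 3.20%).

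The lower gene was Scarb1, a receptor for high-density lipoprotein, which averaged 9.0 ± 0.30 in KO and 9.58 ± 0.29 in Ctrl (SD, n = 4 each; log2 difference -0.58, adjusted p = 0.561 in limma). The higher ones were Npc1, which exports cholesterol from lysosomes, at 0.27 (adjusted p = 0.494), Apoa1, the main apolipoprotein of high-density lipoprotein, at 0.18 (adjusted p = 0.659), and Mttp, which loads lipid onto apolipoprotein B, at 0.17 (adjusted p = 0.660). For Npc1 and Mttp, 16.7% of the list, all KO values were above all Ctrl values, as for 2.28% of all genes. In the list of SREBP1 fatty acid synthesis targets all 10 were measured and 0 passed. Scd1, the delta-9 desaturase of fatty acids, had the largest difference there. It read 8.68, 7.34, 7.80 and 7.84 in KO 1 to 4, against 7.04, 7.08, 7.25 and 7.26 in Ctrl 1 to 4, so that KO 1 stood well above the rest and all KO values were above all Ctrl values (log2 difference 0.76, adjusted p = 0.561 in limma).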

How the data were processed

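Per the labels' protocols, total RNA from tissue kept in RNAlater was extracted on columns, treated with DNase and turned into biotin-labelled cRNA for Affymetrix arrays. The authors deposited 1 table of log2 values, taken as log2 from their range of 2.55 to 14.83. The submitters' processing notes list Partek 6.4 with no role. Background correction, summarisation and normalization were steps not given in the sources used here. Since array medians were nearly equal, a shift of all transcripts could not be seen. Precision is limited by the number of arrays.

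Of 45101 probe sets 64 array controls were left out of the tests. GEO's platform annotation gave 34945 probe sets 1 symbol, 932 several and 9160 none, and 34741 were matched by Entrez identifier to RefSeq (0 symbols updated). Knockout minus control was fitted across the 45037 probe sets in R 4.3.3 by limma 3.58.1, with its functions lmFit and eBayes (two-sided, Benjamini-Hochberg adjustment, threshold 0.05, no filter or covariate), after tests on simulated data. Some representative probe sets end in _a_at, _s_at or _x_at, which in this array family mark probes that can read several transcripts, so those values may mix sources.

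Members and lists were chosen with earlier results of these data known. Values in every sample were given, by rule, for members with an unadjusted p under 0.05, for the 6 with the largest SD within groups and for a fixed set of key genes. Alternatives were a replicate block, repeated quantile normalization, median centring, filters and floors at 5, other variance models, array weights, a threshold of 0.1, mean probe sets and each mouse left out. Figures were drawn with matplotlib 3.10.9.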

Additional observations from a re-analysis of the deposited data

How the results depend on the processing

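No member passed under any of the alternatives run, and the differences of Abca1, Abcg5, Abcg8, Npc1l1 and Stard4 stayed above 0 in all of them. With each mouse left out in turn, between 13 and 20 probe sets passed, 19 in the fit as reported. They numbered 4 with values under 5 set to 5, 2 in an ordinary linear model, 29 at an adjusted p under 0.1, 42 without both arrays numbered 3 and 32 with the spike-in covariate, the last 2 chosen after seeing the data. Over all probe sets the replicate numbers did not pair the samples, although the mice numbered 3 and 4 shared the extremes of the enzymes: the correlation of same-numbered deviations over all probe sets lay between -0.18 and 0.076, and 0 of 4 knockout samples correlated best with their own number. With the replicate block 24 probe sets and 0 members passed, the median r between synthesis enzymes was 0.25 and their median SD 0.14, and the SD of Abca1 was 0.10, against 0.47 without the block. With the spike-in covariate these were 0.090 and 0.11. Leaving out each mouse, the median r ran between 0.84 and 0.91, and members with the higher KO mean numbered between 10 and 24. Single differences were followed through the alternatives only for the members given in every sample, not for all 28. Among those followed, leaving out 1 mouse turned the sign of 7 differences in at least 1 of the 8 fits: Cyp51 (-0.16 to 0.17), Fdft1 (-0.15 to 0.18), Hmgcs1 (-0.18 to 0.16), Insig1 (-0.27 to 0.0098), Pmvk (-0.071 to 0.33), Sqle (-0.043 to 0.47) and Srebf2 (-0.062 to 0.042). Cyp51 was also below 0 after repeated quantile normalization (-0.020), with array weights (-0.018), without both arrays numbered 3 (-0.026), and with the spike-in (-0.069) or pancreas (-0.012) covariate. Fdft1 was above 0 after median centring (0.0078), with array weights (0.012) and without both arrays numbered 3 (0.047) or 4 (0.016). Hmgcs1 was above 0 after median centring (0.0057), as the mean of its probe sets (0.042) and without both arrays numbered 4 (5e-04), and Srebf2 without both arrays numbered 4 (0.049). The causes of these changes were not tested. How much of a dim probe set's value is background is not known.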

Other observations

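The genes that followed the synthesis enzymes between mice were looked for after the data were seen, among the 1102 genes that are no members and whose SD within groups was above the 95th percentile. The r values are descriptions over 8 arrays of deviations from group means. Rab5b, an endosomal GTPase, had the highest r with the enzyme mean, 0.96. Aacs, which activates acetoacetate for lipid synthesis in the cytosol, had r = 0.95. It read 8.18, 8.08, 8.38 and 7.73 in KO 1 to 4, against 7.84, 8.13, 8.42 and 7.70 in Ctrl 1 to 4. Snap23, a membrane fusion protein, had r = 0.95 and spanned 2.52-fold among KO mice and 2.19-fold among Ctrl mice. Outside that search, the 10 listed fatty acid synthesis genes were mixed: Acaca had 0.92, Fasn 0.89 and Scd2 0.83, Elovl6, Elovl5, Acly, Acss2 and Thrsp lay between 0.22 and 0.66, and Scd1 had -0.014 and Me1 -0.39.

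On the opposite side Apob, which encodes the structural protein of chylomicrons, had r = -0.996. It read 12.44, 12.43, 11.26 and 13.17 in KO 1 to 4, against 12.30, 11.78, 11.46 and 13.07 in Ctrl 1 to 4. KO 4 and KO 3 differed 3.75-fold, while the log2 difference between genotypes was 0.17 (limma, adjusted p = 0.953). Lifr, Rbp4, Pcdh19 and Tmprss15 had r between -0.98 and -0.97, and, outside that search, Lipa, the lysosomal acid lipase that frees cholesterol from its esters, had -0.94. Over all genes 364 (2.00%) had r of 0.9 or more with the poly-A spike-ins and 219 (1.20%) had -0.9 or less. The 3′ minus 5′ difference of the Gapdh controls lay between -0.090 and -0.056 in KO and between -0.078 and 0.011 in Ctrl, and that of the Actb controls between 0.32 and 0.46 in KO and between 0.43 and 0.61 in Ctrl.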
